A study of Mus musculus with 75 samples.

Results

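The Hsd3b genes encode 3-beta-hydroxysteroid dehydrogenases, and 7 of them, Hsd3b1 to Hsd3b7, were taken by gene symbol from the 55536 genes counted in mouse liver RNA. No other symbol of that family stood in the table. The family was selected on measured values: one member, Hsd3b5, was already known to be low in high-risk livers of 5 months and in uninvolved and tumor tissue of 10 months. Values for those contrasts are therefore given as a description, with no test.

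These enzymes act on the 3-beta-hydroxyl group of steroids. The dehydrogenase and isomerase forms turn pregnenolone and dehydroepiandrosterone into progesterone and androstenedione, an obligatory step to every class of steroid hormone. Other rodent forms run as NADPH-dependent ketosteroid reductases that inactivate steroids, and one member works on bile acid precursors rather than on hormones. In the mouse, Hsd3b1 is the main form of adrenal gland and gonad, Hsd3b2 and Hsd3b3 are forms of liver and kidney, Hsd3b5 is a reductase of adult male liver, Hsd3b6 is known from placenta, skin and adrenal gland, and Hsd3b7 belongs to bile acid synthesis.

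All livers were from C57Bl/6 mice labelled male. Tributyltin (TBT), a biocide of the organotin class, reached the offspring through the drinking water of the dams up to weaning. The stated dose was 0.5 mg/kg of body weight each day, given as 3.07 µM, and control dams received vehicle. Liver was sampled at 3 weeks (7 vehicle and 8 TBT mice), at 5 months (8 vehicle mice, 16 TBT mice called low risk and 10 called high risk) and at 10 months (6 vehicle, 5 low-risk TBT, 5 samples of uninvolved liver from high-risk TBT mice and 7 tumors). One further library is labelled as a tumor of a vehicle mouse, and entered no comparison. How mice were assigned to a risk class, and whether mice of a group came from separate litters, is not stated in the labels, so p-values measure only the spread between these samples. Sequencing was done in 2 batches: batch 2 held 10 low-risk, 7 high-risk and 1 vehicle library of 5 months, and batch 1 all others.

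The 75 libraries held 2.83 to 45.4 M counts (M for mega), and a count of 3 corresponded to 0.0368 to 1.02 CPM, the counts of a gene per M counts of its library. Levels below are CPM after TMM scaling. In bulk tissue, fewer cells that express a gene and less RNA per cell cannot be told apart. All 9 hepatocyte markers were seen in every group, while 6 kidney markers summed to at most 16 CPM. At 5 months, high-risk samples 1 and 22, low-risk sample 26 and vehicle 9, and at 10 months tumor 5, carried adrenal steroid genes, with a summed level of 19.1 to 60.5 CPM for 7 markers. High-risk samples 1 and 22 also stood apart from the other 8 of their group in Hsd3b1, Hsd3b2, Hsd3b3 and Hsd3b5. At 3 weeks TBT sample 4 had Xist at 348 CPM and the Y-linked Ddx3y at 4.10 CPM, against its male label, and 5-month low-risk sample 24 had both genes (84.6 and 102 CPM). Leaving out TBT sample 4 or low-risk sample 24 changed no count of called members in the comparisons that use them.

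Of the members, 6 lie in one cluster on the minus strand of GRCm38 chromosome 3. From low to high coordinate these are Hsd3b4 (98499071 to 98510514), Hsd3b5 (98618634 to 98630252), Hsd3b2 (98709255 to 98724543), Hsd3b3 (98741523 to 98763127), Hsd3b6 (98805504 to 98814443) and Hsd3b1 (98852194 to 98859794). Hsd3b7 lies alone on chromosome 7 (127800604 to 127803802, plus strand). The 250 bases before the RefSeq start (GRCm38.p6) are shown for Hsd3b5, the member whose levels led to the choice of the family, for Hsd3b3, whose window resembles it, and for Hsd3b1, the member of the youngest livers. In the first pair, capitals mark the longest stretch that both windows share. In Hsd3b1, capitals mark a match to TTCNNNGAA, the letters of a STAT5-type site.
Hsd3b5, chr3:98645535-98645784, minus strand: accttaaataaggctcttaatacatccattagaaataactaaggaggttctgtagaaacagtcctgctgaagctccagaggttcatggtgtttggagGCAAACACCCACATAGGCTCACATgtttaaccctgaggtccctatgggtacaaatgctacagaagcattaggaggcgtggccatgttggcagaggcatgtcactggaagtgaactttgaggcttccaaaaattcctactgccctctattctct
Hsd3b3, chr3:98763129-98763378, minus strand: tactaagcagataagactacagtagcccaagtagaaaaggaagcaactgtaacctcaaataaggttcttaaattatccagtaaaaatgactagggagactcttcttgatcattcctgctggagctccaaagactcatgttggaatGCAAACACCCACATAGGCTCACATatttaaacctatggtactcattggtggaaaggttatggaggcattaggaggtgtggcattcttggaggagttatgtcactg
Hsd3b1, chr3:98859795-98860044, minus strand: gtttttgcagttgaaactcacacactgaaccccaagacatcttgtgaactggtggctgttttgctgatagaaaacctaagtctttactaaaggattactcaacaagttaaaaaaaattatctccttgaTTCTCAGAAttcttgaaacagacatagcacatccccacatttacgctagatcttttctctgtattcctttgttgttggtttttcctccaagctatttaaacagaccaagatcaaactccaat

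The stretch shared by Hsd3b5 and Hsd3b3 was 24 bases long, starting 153 and 105 bases before the respective start. Searched on both strands, it was held by 3 of 32851 promoter windows (0.00913%), and these 3 were the Hsd3b5 window and the 2 windows that RefSeq lists for Hsd3b3. A local alignment of the first 2 windows had 154 identical bases over 204 columns (75.5%). With Hsd3b2 and Hsd3b1, the longest stretch shared with Hsd3b5 was 8 and 7 bases. The RefSeq start of Hsd3b5 lies 15282 bases above the end of the GENCODE model on which counts were made, so this window belongs to a longer transcript model. TTCNNNGAA, which reads the same on both strands, was in 7.02% of all windows of 250 bases and in 2 of the 9 windows of the members (Hsd3b1, 122 bases before the start, and Hsd3b7). These letters were not found in the windows of Hsd3b2, Hsd3b3 and Hsd3b5.

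Hsd3b2, Hsd3b3 and Hsd3b5 had counts in all 73 samples. Hsd3b1 had counts in 48 samples, Hsd3b7 in 64 with at most 18 counts, Hsd3b6 in 17 with at most 7 counts, and Hsd3b4 in none. Per kilobase of exon, Hsd3b5 led the family in vehicle livers of 10 months with a median of 154.5 CPM per kb. Hsd3b3 followed with 17.9 and Hsd3b2 with 15.4 CPM per kb. The scaling used all annotated exonic bases, 1549 for Hsd3b5, 6396 for Hsd3b3 and 3695 for Hsd3b2. In plain CPM the medians were 239, 114 and 56.9, so the size of the lead depends on these lengths. In vehicle livers of 3 weeks the order was different, with medians of 14.7 for Hsd3b3, 5.97 for Hsd3b1, 4.53 for Hsd3b2 and 3.50 CPM per kb for Hsd3b5. In plain CPM at 3 weeks Hsd3b2 (median 16.7) stood above Hsd3b1 (11.1). The ranges of Hsd3b1, Hsd3b2 and Hsd3b5 overlapped at 3 weeks, those of Hsd3b1 and Hsd3b5 reached into that of Hsd3b3, and Hsd3b2 and Hsd3b3 overlapped at 10 months.

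**Figure D1:**
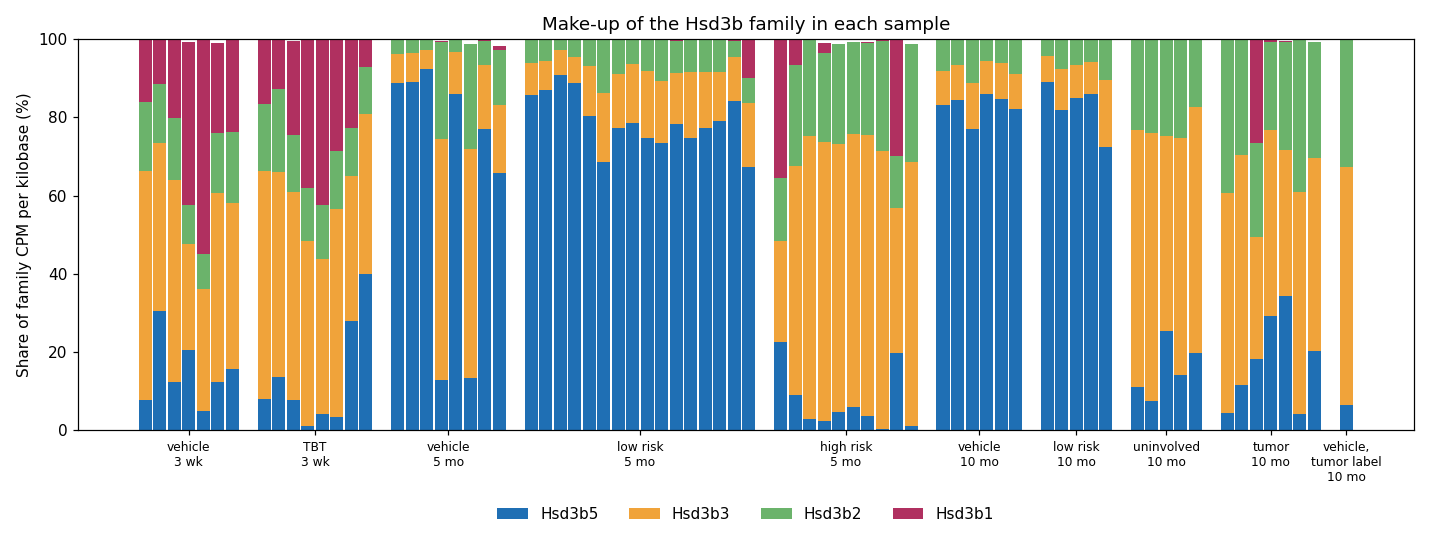
Share of each member in the summed CPM per kilobase of the family, one bar per sample, samples of a group side by side by number. Hsd3b5 made up a median of 83.7% in 10-month vehicle livers and 84.9% in low-risk livers of that age, against 14.1% in uninvolved liver and 18.2% in tumors. The shares depend on the exonic lengths used for scaling.

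The make-up of the family differed between adult groups, given here as a description. The shares depend on the exonic lengths used, of which that of Hsd3b3 is the longest. Hsd3b5 made up 67.4% to 90.8% of the length-scaled total in the 16 low-risk livers of 5 months and 0.369% to 22.7% in the 10 high-risk livers. Hsd3b3 held the largest median share in high-risk livers (68.9%), in uninvolved liver (62.9%) and in tumors (49.2%). At 3 weeks Hsd3b3 also held the largest median share, 42.7% in vehicle and 49.9% in TBT mice, and Hsd3b1 had 23.1% in both.

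Hsd3b5 (ENSMUSG00000038092), the reductase, had levels from 0.0634 to 387 CPM. At 3 weeks it had a median of 5.42 CPM in vehicle mice, with a range of 2.77 to 21.2, and 3.81 CPM in TBT mice (0.476 to 22.7). The 2 groups overlapped over nearly their whole range, and the lowest TBT value belonged to sample 4, the one with Xist. TBT minus vehicle differed by -0.40 on the log2 scale (SE 0.70, edgeR quasi-likelihood, adjusted p 0.999), and by -0.21 without sample 4.

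At 5 months, vehicle livers had 1.23 to 329 CPM of Hsd3b5 with a median of 168. Vehicles 4 and 6 had 3.11 and 1.23 CPM (65 and 23 counts), far below the other 6, which had 60.5 CPM or more. Low-risk livers had 79.5 to 345 CPM with a median of 178. High-risk livers had 0.0634 to 20.4 CPM with a median of 0.785. No high-risk sample reached the lowest low-risk sample, while vehicles 4 and 6 fell inside the high-risk range. Without samples 1 and 22, which carried adrenal genes and had 20.4 and 16.5 CPM, the other 8 high-risk livers had at most 1.35 CPM of Hsd3b5.

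At 10 months, vehicle livers had 190 to 325 CPM of Hsd3b5 (median 239). The 5 low-risk livers, numbered 2, 4, 8, 9 and 10, had 387, 176, 283, 270 and 94.1 CPM. Uninvolved liver of mice 1, 5, 7 and 12 had 5.89, 17.8, 9.45 and 11.1 CPM, and the summed libraries 3 and 6 had 2.78 CPM. The 7 tumors had 1.02 to 20.8 CPM with a median of 5.57. All uninvolved and tumor samples lay below all vehicle and low-risk samples of their age. The library labelled as a vehicle tumor had 2.58 CPM (33 counts).

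**Figure D2:**
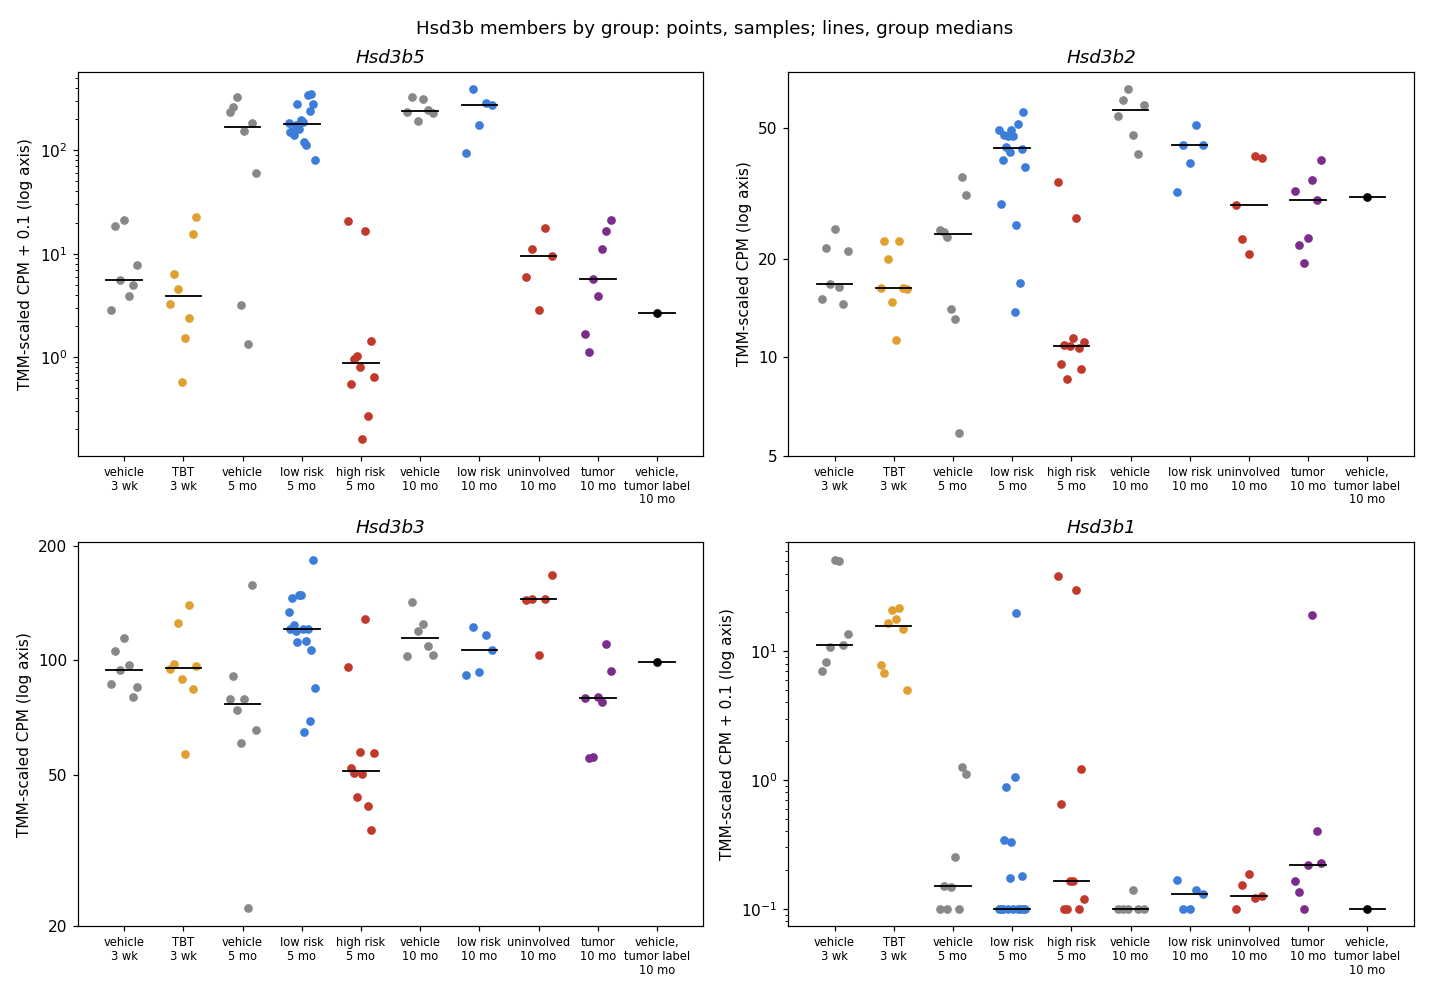
TMM-scaled CPM of 4 members on log axes, one point per sample with the group median as a line; 0.1 was added for Hsd3b5 and Hsd3b1. Hsd3b5 had a median of 0.785 CPM in 5-month high-risk livers against 178 in low-risk livers, whereas Hsd3b1 was above 4 CPM in every 3-week sample.

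The fitted log2 differences of Hsd3b5 in the contrasts that led to the choice of the family are a description. High-risk minus low-risk livers of 5 months gave -5.53 (SE 0.87), and high-risk minus vehicle -5.16 (SE 0.96). Batch 1 alone (3 high-risk, 6 low-risk) gave -8.42 and batch 2 alone (7 and 10) gave -4.72 for the first of these. Without the libraries carrying adrenal genes the 2 values were -8.28 and -7.78. At 10 months, uninvolved minus low-risk liver gave -4.71 (SE 0.47), uninvolved minus vehicle -4.79 (SE 0.46) and tumor minus vehicle -4.88 (SE 0.60).

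Tumor and uninvolved liver of high-risk mice were also compared with each other. The choice rested on low Hsd3b5 in both tissues, so a small difference was partly built in and is a description. Hsd3b5 had a log2 difference of -0.14 (SE 0.67), smaller than its error. In the 6 mice with both tissues, tumor was lower in mice 1, 5 and 12 and higher in mice 3, 6 and 7, mice 3 and 6 being set against their summed uninvolved libraries. The largest within-mouse log2 differences were -1.89 in mouse 1 and 2.56 in mouse 6.

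The age changes of Hsd3b5 are a description too. The vehicle and low-risk livers of 5 and 10 months are those against which it was known to be low. Between 3 weeks and 5 months, Hsd3b5 rose in vehicle livers by 4.03 on the log2 scale (SE 0.86, 7 samples each, batch 1). Vehicles 4 and 6 at 5 months lay below 6 and 7 of the 7 samples of 3 weeks, so the groups overlapped. In TBT livers, it rose by 5.32 from 3 weeks to low-risk livers of 5 months (SE 0.64, 6 against 8 samples of batch 1) with no overlap. From 5 to 10 months its log2 change was 0.76 (SE 0.78) in vehicles and -0.18 (SE 0.62) in low-risk livers by edgeR.

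Hsd3b2 (ENSMUSG00000063730), a dehydrogenase and isomerase form of liver and kidney, rose between 5 and 10 months in vehicles. Vehicle livers had 14.5 to 24.6 CPM at 3 weeks, 5.89 to 35.4 at 5 months and 41.9 to 65.9 at 10 months, with medians of 16.7, 23.7 and 56.9 CPM. All 10-month vehicles were above all 5-month vehicles. The rise from 5 to 10 months was 1.48 on the log2 scale (SE 0.27, edgeR adjusted p 0.00152), while 3 weeks to 5 months gave 0.06 (SE 0.26, adjusted p 0.915). In TBT livers the rise came between 3 weeks (11.3 to 22.7 CPM) and low-risk livers of 5 months, where the 6 samples of batch 1 had 16.9 to 56.3 CPM. It was 1.30 (SE 0.20, edgeR adjusted p 3.98e-05), with overlap through low-risk sample 5. From there to 10 months (31.9 to 51.4 CPM) low-risk livers changed by -0.03 (SE 0.22, edgeR adjusted p 0.972). Whether the 2 age courses differ was not tested.

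At 5 months, low-risk livers had 13.8 to 56.3 CPM of Hsd3b2 (median 43.5) against a vehicle median of 23.7. The log2 difference of 0.81 (SE 0.30) did not pass (edgeR adjusted p 0.61, and 0.158 without the libraries carrying adrenal genes). High-risk livers had 8.56 to 34.3 CPM with a median of 10.9. All but samples 1 and 22 were at or below 11.5 CPM and below every low-risk liver. As a description, high-risk minus low-risk livers differed by -1.51 (SE 0.27) in Hsd3b2 and high-risk minus vehicle by -0.70 (SE 0.33).

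At 10 months, low-risk minus vehicle livers differed by -0.38 in Hsd3b2 (SE 0.17, edgeR adjusted p 1). Uninvolved liver had 29.1, 20.7, 41.2, 40.6 and 23 CPM (mouse 1, libraries 3 and 6, mice 5, 7 and 12) and tumors 19.4 to 40.1 CPM. Both lay below every vehicle liver of that age. As a description, uninvolved minus vehicle gave -0.85 (SE 0.18), uninvolved minus low-risk -0.47 (SE 0.18) and tumor minus vehicle -0.92 (SE 0.16). Between tumor and uninvolved liver the difference was -0.12 (SE 0.22, edgeR adjusted p 0.727), smaller than its error.

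Hsd3b3 (ENSMUSG00000062410), the neighbour of Hsd3b2 and like it a dehydrogenase and isomerase form, was lower in tumor than in uninvolved liver. Uninvolved liver of mice 1, 5, 7 and 12 had 144, 145, 168 and 145 CPM and the summed libraries 3 and 6 had 103 CPM. Tumors had 55.3 to 110 CPM with a median of 79.9. Only the summed uninvolved libraries fell inside the tumor range. The log2 difference, tumor minus uninvolved, was -0.85 (SE 0.18, edgeR adjusted p 0.00786). With mouse as a block over 6 mice it was -0.71 (edgeR adjusted p 0.0359). That fit took the near-identical uninvolved libraries 3 and 6 as separate mice, so its pairs are not all independent. With mice 3 and 6 set against their summed libraries, tumor was lower than uninvolved liver in 5 of 6 mice. Mouse 6 was the exception at 0.10.

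Vehicle livers had 103 to 142 CPM of Hsd3b3 at 10 months and low-risk livers 123, 93.2, 117, 107 and 91.3 CPM. As a description, uninvolved liver differed by 0.40 (SE 0.12) from low-risk liver and by 0.26 (SE 0.12) from vehicle, and tumor by -0.55 (SE 0.15) from vehicle. Of the tested members Hsd3b3 alone had a positive difference between uninvolved and low-risk liver. At 5 months the values were 22.4 to 158 CPM in vehicle, 65.0 to 184 in low-risk and 35.9 to 129 in high-risk livers, with medians of 76.6, 121 and 51.3. High-risk samples 1 and 22 had 96.0 and 129 CPM and the other 8 at most 57.3. The differences were -0.99 (SE 0.21) for high-risk minus low-risk and -0.49 (SE 0.26) for high-risk minus vehicle.

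The high-risk minus low-risk difference of Hsd3b3 was negative at 5 months and positive at 10 months. The change between the ages was 1.37 on the log2 scale (SE 0.31), a description, since both contrasts behind it were known when the family was chosen. The high-risk samples are labelled only as high risk at 5 months and as uninvolved liver at 10 months. Of the 4 members fitted, 1 passed the threshold, beside 0.448% of all genes (0.18% higher, 0.267% lower), and nothing is read from that count. It was 0 without any 1 of the 5 low-risk livers of 10 months or any 1 of uninvolved samples 1, 5, 7 and 12. It was 3 without the libraries carrying adrenal genes, where the change was 3.61 for Hsd3b5 in place of 0.79.

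With age in vehicles, Hsd3b3 rose by 0.75 from 5 to 10 months (SE 0.20, edgeR adjusted p 0.0175), with no overlap within batch 1, while vehicle 8 of batch 2 had 158 CPM at 5 months. The call did not hold in a fit of these 2 groups alone (0.73, adjusted p 0.0651). From 3 weeks to 5 months it changed by -0.48 in vehicles (SE 0.19, edgeR adjusted p 0.0774, and -0.52 with 0.0494 without vehicle 9, which carried adrenal genes). From TBT livers of 3 weeks to low-risk livers of 5 months it changed by 0.34 (SE 0.18, edgeR adjusted p 0.168).

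**Figure D3:**
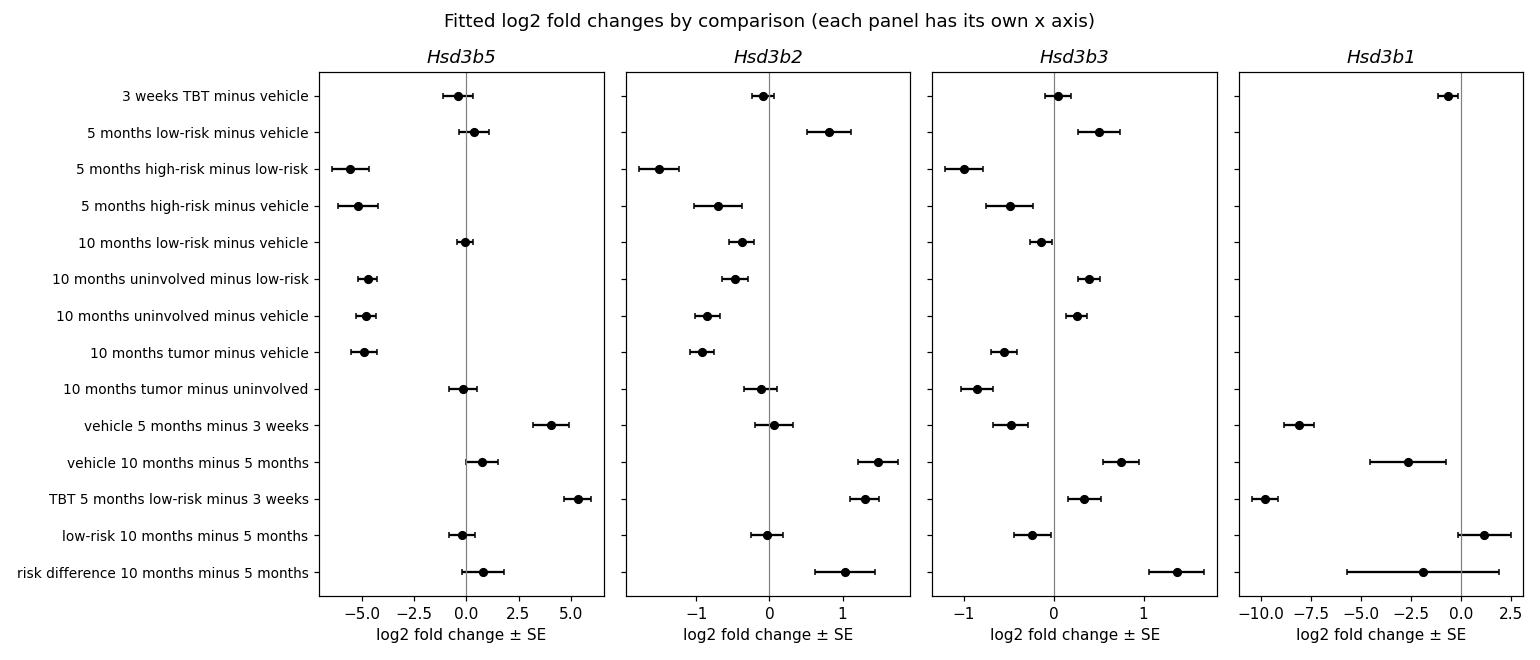
Fitted log2 fold change and standard error of 4 members in each comparison, with a separate x axis for each member; an empty row was not tested. Hsd3b5 lay between -5.53 and -4.71 in the 5 contrasts of high-risk, uninvolved or tumor tissue with low-risk or vehicle liver, and Hsd3b3 had -0.85 between tumor and uninvolved liver.

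Hsd3b2 and Hsd3b3 sit next to each other, and their ratio of CPM per kb within a sample does not depend on library scaling. It had a median of 0.313 in vehicle livers of 3 weeks (0.292 to 0.429), 0.457 at 5 months (0.287 to 0.825) and 0.831 at 10 months (0.661 to 0.989). In TBT mice, the median was 0.294 at 3 weeks, 0.605 in low-risk livers of 5 months and 0.723 at 10 months. High-risk livers of 5 months had 0.367 and uninvolved liver of 10 months had 0.350, while tumors had 0.689.

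The 8 comparisons of the ratio that the choice did not rest on were tested by two-sided permutation over samples, with Benjamini-Hochberg adjustment over the 8. Tumors were above uninvolved liver by a log2 difference of 0.77 (exact permutation p 0.00505, adjusted 0.0186). That permutation took all samples as independent, although 6 mice gave both tissues. Tumors were higher in 6 of 6 mice with both tissues. There the near-identical uninvolved libraries 3 and 6 were taken separately, so the 6 pairs are not all independent. The rise in vehicles was 0.51 from 3 weeks to 5 months (exact permutation p 0.0181, adjusted 0.0362) and 0.76 from 5 to 10 months (exact permutation p 0.00699, adjusted 0.0186). The first of these was 0.36 (exact permutation p 0.0584) without vehicle 9 and 3-week vehicle mouse 3. Vehicle 9 was technically deviating, as was a library of mouse 3, whose summed sample was left out whole. In TBT livers, the rise from 3 weeks to low-risk livers of 5 months was 0.91 with no overlap (exact permutation p 0.000666, adjusted 0.00533). From 5 to 10 months low-risk livers gave 0.23 (exact permutation p 0.208, adjusted 0.238).

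TBT against vehicle, with low-risk livers alone in adults, gave no call in the ratio. TBT minus vehicle at 3 weeks was -0.11 (exact permutation p 0.297, adjusted 0.297), low-risk minus vehicle at 5 months 0.27 (permutation p 0.125 over 100000 resamples, adjusted 0.167; 0.29 within batch 1, exact permutation p 0.241), and at 10 months -0.24 (exact permutation p 0.121, adjusted 0.167). At 5 months the ratio difference passed without the libraries carrying adrenal genes (0.42, permutation p 0.0154) or the technically deviating ones (0.40, permutation p 0.0256), both unadjusted.

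**Figure D4:**
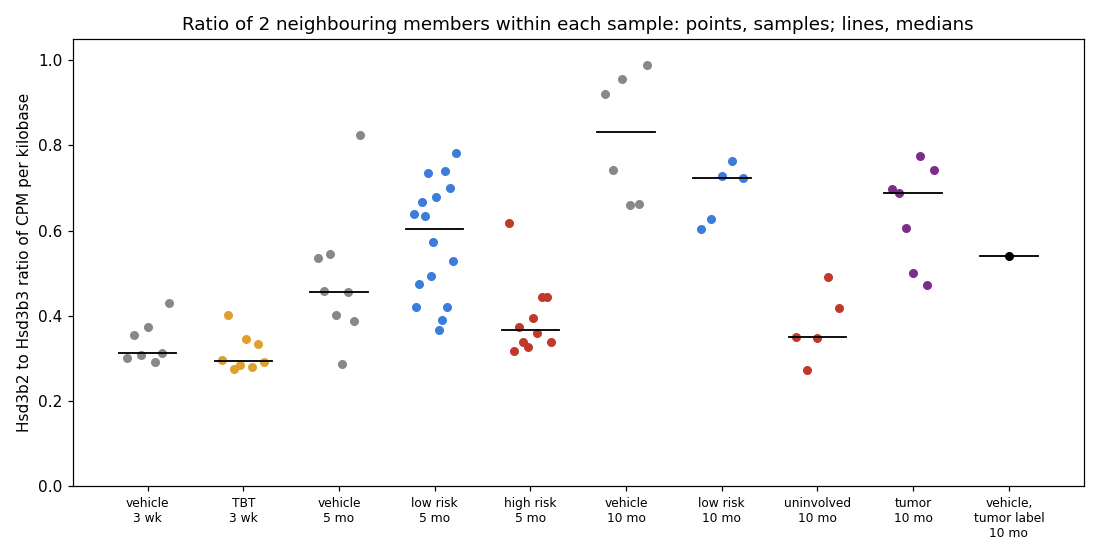
Ratio of Hsd3b2 to Hsd3b3 in CPM per kilobase, one point per sample, lines at group medians. The median was 0.350 in uninvolved liver and 0.689 in tumors of 10 months, and 0.313, 0.457 and 0.831 in vehicle livers of the 3 ages.

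Hsd3b1 (ENSMUSG00000027871), the form of adrenal gland and gonad, was present in every liver of 3 weeks. Vehicle mice 1 to 7 had 6.92 to 51.3 CPM with a median of 11.1, and TBT mice 4.94 to 21.6 CPM with a median of 15.5. Vehicles 4 and 5 had 51.3 and 49.8 CPM, far above the others. TBT minus vehicle differed by -0.64 (SE 0.50, edgeR adjusted p 0.999). The adrenal markers were low in the same samples: the 7 summed to 1.02 to 3.23 CPM in vehicle and 0.485 to 3.36 CPM in TBT mice, with Star, the cholesterol carrier, at medians of 1.38 and 1.73 CPM. Mc2r, the corticotropin receptor, was at 0 in every vehicle mouse and at most 0.5 CPM in TBT mice. Cyp11a1, the side-chain cleavage enzyme, was at most 0.972 CPM.

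In adults Hsd3b1 was at or near 0, with no count in 25 of 58 samples. Only 4 of them exceeded 10 CPM and the other 54 had at most 1.16 CPM. The fitted log2 difference from 3 weeks to 5 months was -8.08 in vehicles (SE 0.75) and -9.80 in TBT livers (SE 0.64), and the ages did not overlap in either fit. The TBT livers of 5 months in that fit were the low-risk ones of batch 1. Hsd3b1 passed the filter on low counts only through the 3-week samples, so a difference was built into its being fitted. Both values are therefore a description, and they rest on very few adult counts.

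The 4 adult samples were high-risk 1 and 22 and low-risk 26 of 5 months and tumor 5, with 38.2, 29.7, 19.7 and 19 CPM of Hsd3b1. They also had Star at 13.5, 11.2, 9.80 and 20.5 CPM, whereas the highest 3-week value of Star was 2.80 CPM. Cyp11a1 was 2.06, 2.01, 2.56 and 8.32 CPM, and Cyp21a1 and Cyp11b1, the later enzymes of corticosteroid synthesis, lay between 1.38 and 15.6 CPM. Vehicle 9 of 5 months, the shallowest library with 2.83 M counts, had 21.8 CPM of summed markers and 1.02 CPM of Hsd3b1. The part of adrenal RNA in these samples was not tested. Uninvolved liver of mouse 5, per the labels from the same animal as tumor 5, had 0.0222 CPM of Hsd3b1 (1 count).

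**Figure D5:**
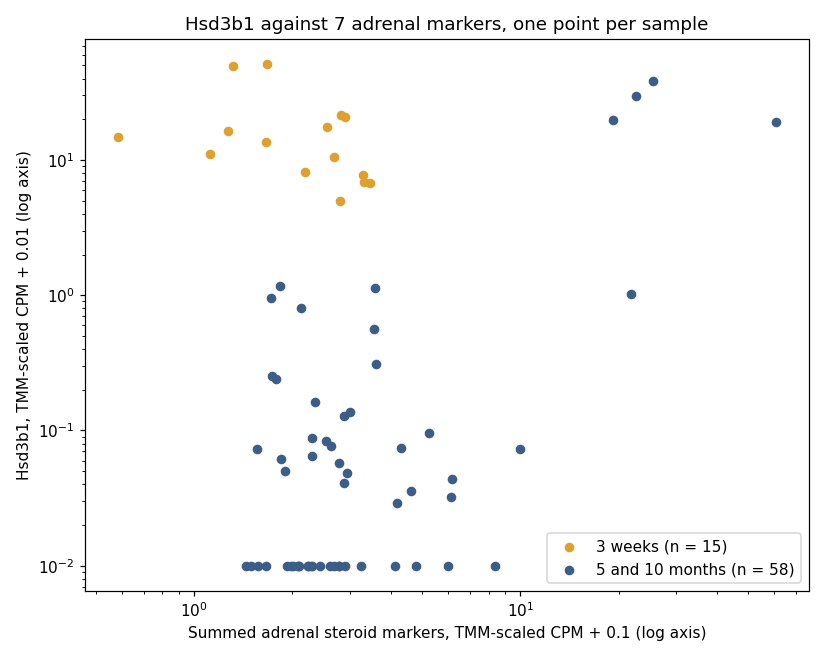
Hsd3b1 against the summed CPM of 7 adrenal steroid markers, one point per sample on log axes, with 0.1 added to x and 0.01 to y. The 15 samples of 3 weeks combine 4.94 to 51.3 CPM of Hsd3b1 with at most 3.36 CPM of markers, and the 4 adult samples above 10 CPM of Hsd3b1 have 19.1 CPM of markers or more.

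Hao2, a hydroxyacid oxidase gene next to Hsd3b1 at the end of the cluster, was also higher at 3 weeks. It had 24.4 to 56.9 CPM in 3-week vehicle and 24.1 to 41.2 in TBT mice, and at most 1.36 CPM in vehicles of 5 months. As a description, its log2 difference from 3 weeks to 5 months was -6.85 in vehicles (SE 0.42) and -7.47 from TBT to low-risk livers (SE 0.52). High-risk samples 1 and 22 had 72.1 and 20.5 CPM of Hao2, while low-risk 26 and tumor 5 had 0.107 and 1.38 CPM. Low-risk 24 and high-risk 10 had 15.1 and 21 CPM of Hao2 with less than 1 CPM of Hsd3b1. Zfp697, a zinc finger gene on the opposite strand, differed by 0.18 (SE 0.41, adjusted p 0.804) in vehicles from 3 weeks to 5 months by edgeR. Its model shares 4.39% of the exonic bases of Hsd3b3 and 2.68% of those of Hsd3b2.

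Hsd3b4 (ENSMUSG00000095143) had 0 counts in all 73 samples. The sequence of its transcript gives no unique place to count: 0 of 1588 windows of 50 bases were found in that gene alone, and all also occurred in transcripts of Gm10681. A count of 0 in such a gene is no measure of its expression. Windows of 50 bases found in no other gene made up 78.8% in Hsd3b5, 73.1% in Hsd3b2, 91.3% in Hsd3b3, 84.3% in Hsd3b6 and 95.1% in Hsd3b1. Hsd3b2 and Hsd3b3 share windows with each other (11% of those of Hsd3b2), and how reads with several matches were counted is not given in the sources used here. The summed chromosome 3 members differed by -0.62 between tumor and uninvolved liver (SE 0.20, edgeR adjusted p 0.0437).

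Hsd3b6 (ENSMUSG00000027869) had 0 counts in 56 of 73 samples and passed the filter in no comparison. It was seen in 4 of 7 vehicle and 4 of 8 TBT livers of 3 weeks, with at most 0.375 CPM. Hsd3b7 (ENSMUSG00000042289) had 355 counts in all, against 53 for Hsd3b6, and at most 1.02 CPM. Only 16.9% of its windows of 50 bases were found in no other gene, 62.0% of its exonic bases lie in the same-strand gene Gm49388 and 62.4% in the antisense gene 9430064I24Rik, and how reads in such overlaps were counted is not given in the sources used here. It had 0.399 to 0.699 CPM in vehicles, 0.172 to 0.558 in low-risk, 0.0272 to 0.200 in uninvolved liver and at most 0.427 in tumors at 10 months. As a description, its log2 differences were -2.34 (SE 0.41) for uninvolved minus vehicle, -1.81 (SE 0.43) for uninvolved minus low-risk and -1.50 (SE 0.52) for tumor minus vehicle. Hsd3b7 passed the filter in these fits, which hold vehicle livers (11 to 18 counts). It failed the filter in tumor against uninvolved liver (0 to 10 and 1 to 9 counts). A lower value in those tissues was therefore partly built into its being fitted.

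Counted over the family, TBT against vehicle gave no call at 3 weeks (0 of 4 members tested, beside 0% of 14050 genes), at 5 months in low-risk livers (0 of 3, beside 0% of 14773) or at 10 months in low-risk livers (0 of 4, beside 0% of 16338) by edgeR. At an unadjusted p under 0.05 there were 0, 2 and 1 members and 474, 934 and 688 genes. DESeq2 called 0 members in each, and 2, 52 and 1 genes. Low-risk livers of 10 against 5 months gave 0 of 4 members beside 0.0136% of genes (0.00678% higher and 0.00678% lower), with 0 members and 1602 genes at an unadjusted p under 0.05. DESeq2 called 0 members and 121 genes there.

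Among the ages, 2 of 5 tested members were called between 3 weeks and 5 months in vehicles, 1 higher and 1 lower, beside 24.2% of all genes (11.9% higher, 12.3% lower). Between 5 and 10 months 2 of 5 were called, both higher, beside 14.1% (6.68% higher, 7.41% lower). From TBT livers of 3 weeks to low-risk livers of 5 months 3 of 4 were called, 2 higher and 1 lower, beside 31.2% (15.9% higher, 15.4% lower). The 3-week mice carry no risk label, and high-risk livers were not in that fit. The lower member in both 5-month comparisons was Hsd3b1, fitted only because it was high at 3 weeks, so its part in these counts was built in. The higher ones were Hsd3b5 in vehicles, and Hsd3b5 and Hsd3b2 in low-risk TBT livers. These 5-month livers are those against which Hsd3b5 was known to be low, so its part was partly built in too. Between tumor and uninvolved liver 1 of 3 was called, lower, beside 18.1% (7.55% higher, 10.5% lower). Hsd3b5, known as low in both tissues when the family was chosen, was among these 3.

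In the contrasts that led to the choice, the counts are given beside the background and nothing is read from them. High-risk minus low-risk had 3 of 3 lower (38.9% of genes called, 20.3% higher, 18.5% lower). High-risk minus vehicle had 1 of 3 lower (15.8% called, 8.47% higher, 7.38% lower), 0 in batch 1 alone and 3 without the libraries carrying adrenal genes. Uninvolved minus low-risk had 1 higher and 3 lower of 4 (52.4% called, 27.7% higher, 24.7% lower), and 2 called in a fit of these 2 groups alone. Uninvolved minus vehicle had 3 of 4 lower (57.7% called, 31.2% higher, 26.5% lower) and tumor minus vehicle 4 of 4 lower (45.9% called, 24.8% higher, 21% lower).

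Other enzymes of steroid metabolism in liver were taken as a list of 16 reductases and hydroxysteroid dehydrogenases. From 3 weeks to 5 months in vehicles 4 rose and 3 fell, among them Srd5a1, a steroid 5-alpha reductase, by 2.07 (SE 0.18, edgeR adjusted p 3.47e-08), while Akr1c20, an aldo-keto reductase, had -1.12 (SE 0.13, adjusted p 2.08e-06). From 5 to 10 months 8 rose and none fell, led by Akr1c19 at 1.26 (SE 0.18, edgeR adjusted p 0.000278) and Akr1c14, a 3-alpha-hydroxysteroid dehydrogenase, at 1.22 (SE 0.18, adjusted p 0.000358). The median was 0.38 against -0.04 over all genes. Tumors had 4 higher and 0 lower than uninvolved liver, with Akr1c19 at 0.70 (SE 0.14, edgeR adjusted p 0.00722) and Akr1c13 at 0.44 (SE 0.12, adjusted p 0.0222), in the opposite direction to Hsd3b3. In high-risk minus low-risk livers of 5 months 3 were higher and 9 lower, with a median of -0.70, and Akr1c6, a 17-beta-hydroxysteroid dehydrogenase, had -1.43 (SE 0.16). Over all genes, 11.9% rose and 12.3% fell from 3 weeks to 5 months, and 6.68% and 7.41% from 5 to 10 months. In tumor minus uninvolved liver 7.55% were higher and 10.5% lower, and in high-risk minus low-risk livers 20.3% and 18.5%.

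Of 15 genes of bile acid synthesis, the pathway of Hsd3b7, 14 were tested in adults. From 3 weeks to 5 months in vehicles 7 rose and 2 fell, with Cyp7b1, an oxysterol hydroxylase, at 4.77 (SE 0.36, edgeR adjusted p 4.19e-09) and Cyp39a1, another, at -2.08 (SE 0.14, adjusted p 3.84e-10). High-risk minus low-risk livers of 5 months had 1 higher and 10 lower, uninvolved minus low-risk 0 and 10, and tumor minus vehicle 1 and 9, with medians of -0.93, -0.66 and -0.64. Between tumor and uninvolved liver 1 was higher, Akr1d1, the 5-beta reductase, at 0.50 (SE 0.15, edgeR adjusted p 0.0331). Over all genes, 11.9% rose and 12.3% fell from 3 weeks to 5 months. High-risk minus low-risk had 20.3% higher and 18.5% lower, and uninvolved minus low-risk 27.7% and 24.7%. Tumor minus vehicle had 24.8% higher and 21% lower, and tumor minus uninvolved 7.55% and 10.5%.

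Hsd3b5 is known as a male-biased liver gene, and 18 other such genes were followed. In vehicles 17 rose from 3 weeks to 5 months and none fell, with a median of 4.06 against 0.02 over all genes. In the 3-week fit only 13 of the 18 passed the filter on low counts, so a rise was partly built into this count. Cyp4a12a, a fatty acid hydroxylase, had 12.09 (SE 0.49), a description, since its 3-week mean was 0.0194 CPM. Mup20, a urinary protein, rose by 5.04 (SE 0.26, edgeR adjusted p 1.02e-11). From TBT livers of 3 weeks to low-risk livers of 5 months 17 rose as well (median 4.35), with the same limit. Of 14 female-biased genes tested, 12 fell in vehicles and 14 in that low-risk comparison. Of that list 12 genes passed the filter in the 5-month fit and 9 in the 10-month fit. A fall was therefore partly built into these counts. In high-risk minus low-risk livers of 5 months 16 male-biased genes were lower (median -1.70), and 9 were lower and 1 higher in uninvolved minus low-risk liver (median -0.67). Slco1a1, an organic anion carrier, had -3.83 (SE 0.54) in the first, and Susd4, a complement regulator, -3.18 (SE 0.32) in the second. Over all genes, these 2 contrasts had 20.3% and 27.7% higher and 18.5% and 24.7% lower. From 3 weeks to 5 months 11.9% of genes rose and 12.3% fell in vehicles, and 15.9% and 15.4% in TBT to low-risk livers.

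The growth hormone list held 15 genes of the pathway that sets male and female liver patterns. Ghr, the receptor, differed by -1.10 (SE 0.13) between high-risk and low-risk livers of 5 months and by -0.85 (SE 0.13) between uninvolved and low-risk liver of 10 months. In these contrasts 0 and 1 genes of the list were higher and 4 and 4 lower. Over all genes, 20.3% and 27.7% were higher and 18.5% and 24.7% lower. From 3 weeks to 5 months in vehicles 1 rose and 3 fell, beside 11.9% and 12.3% of all genes. Stat5b, a transcription factor of the pathway, had -0.39 (SE 0.08, edgeR adjusted p 0.00144). From 5 to 10 months in vehicles 4 rose and 0 fell, beside 6.68% and 7.41% of all genes. Ghr rose there by 0.75 (SE 0.14, edgeR adjusted p 0.00239).

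Of the adrenal and gonadal synthesis list, 2 to 4 of 11 genes were tested in each comparison, with 2 higher and none lower in high-risk minus low-risk livers, and no kidney marker was tested in any. Markers of liver cell types moved with the same contrasts. In high-risk minus low-risk livers 6 of 9 hepatocyte markers were lower and 1 higher (median -0.66), and 6 of 11 markers of other liver cells were higher and 2 lower (median 0.73). In uninvolved minus low-risk liver the counts were 6 lower and 1 higher, and 7 higher and 3 lower. The summed hepatocyte markers had medians of 132000 CPM in low-risk and 104000 CPM in high-risk livers of 5 months. Between tumor and uninvolved liver 1 hepatocyte marker was lower and no marker of other liver cells passed. Over all genes, high-risk minus low-risk livers had 20.3% higher and 18.5% lower. Uninvolved minus low-risk liver had 27.7% and 24.7%, and tumor minus uninvolved liver 7.55% and 10.5%. The part of cell composition in the Hsd3b values was not tested.

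Over the 72 samples that carry a group, with 3 genes per member, Hsd3b5 was most like Susd4 (Pearson r 0.954 of log2 CPM), Epb41l4b (0.936) and Sult2a8 (0.934). Hsd3b2 was most like Klkb1 (0.877), Apol7a (0.871) and Prkd3 (0.868). Hsd3b1 was most like Fam43a (0.832), its neighbour Hao2 (0.817) and Akr1c18 (0.779), and Hsd3b3 most like Nlrp6 (0.753), Dhdh (0.729) and Fzd8 (0.724). The samples share ages and groups and are not independent points, so these values describe the likeness only.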

How the data were processed

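Liver RNA was measured in 75 libraries. The authors deposited whole-number read counts per gene after batch adjustment (ComBat-seq, per the file name), and made them with Trim Galore, HISAT2 and featureCounts on mm10, per the submitters' processing notes. The libraries were Illumina TruSeq stranded total RNA, per the labels' protocols. How strand and multiply matching reads were counted is not given in the sources used here. A model-adjusted count is not the number of reads seen, so low counts carry more uncertainty than counting error. All 55536 gene IDs matched GENCODE M21 (GRCm38), from which positions and exonic lengths were taken. Promoter sequences are from RefSeq (GRCm38.p6), and all 7 members matched.

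Depth was 2.83 to 45.4 M counts (M for mega). Uninvolved libraries 3 and 6 were far closer to each other than any other pair (SD of log2 CPM differences 0.136, next 0.267) and were summed, as were the 2 libraries of 3-week vehicle mouse 3, which left 73 samples. Each comparison was fitted over all genes with edgeR 4.0.16 in R 4.3.3 (TMM, filterByExpr, robust quasi-likelihood, Benjamini-Hochberg adjusted p under 0.05), taking sequencing batch into the model for 5 months and for the risk interaction, and using batch 1 alone across ages. DESeq2 1.42.0, other scaling, filters, fits and left-out libraries were alternatives. A library was called technically deviating for a depth below 5 M counts, for more than 35000 genes seen, or for a mitochondrial share above 10%, which held for 6. The fits were tested on simulated data. Same-numbered tumor and uninvolved libraries come from one mouse, per the labels. Their deviations correlated between -0.257 and 0.672 over 6 mice, and only tumor 7 was most like its own uninvolved library. The within-mouse values thus rest on the labels.

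All members were named in every group, the 2 genes with the smallest adjusted p per comparison were eligible from the steroid enzyme, bile acid, male-biased and growth hormone lists, and likeness was taken as the 3 genes with the highest r of log2(CPM + 0.5) among genes averaging 5 CPM or more, predicted genes apart. Members and lists were chosen with earlier results of these data known. One gene of the growth hormone list is not reported here.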

Additional observations from a re-analysis of the deposited data

Results flagged for a closer look

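Hsd3b1 was 19 CPM in tumor 5 against at most 0.299 CPM in the other tumors, a gap beyond the 95% limit for 7 samples. The same tumor had 60.5 CPM of summed adrenal markers; their part was not tested. Among 10-month vehicles, sample 5 had 0.0388 CPM of Hsd3b1, a single count, and the others had 0. Such a check flags about 1 in 20 groups by chance, and 2 of 32 were found here. The high-risk minus low-risk difference of Hsd3b3 differed between 10 and 5 months by 1.37 on the log2 scale in the edgeR interaction. Both contrasts behind it were known when the family was chosen, so it is a description, and it no longer passed the threshold without any 1 of 9 of the 10 low-risk and uninvolved samples of 10 months.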

How the results depend on the processing

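RLE scaling and DESeq2 changed no count of called members. The count of members past the threshold in the risk interaction, a description, was 1 and became 0 without a filter, in batch 1 alone, and without single samples (0 to 1), and 3 without the libraries carrying adrenal genes, a choice made after seeing the data. High-risk minus vehicle went from 1 member to 0 in batch 1 alone and to 3 without those libraries. Fits of only the 2 groups gave 2 in place of 4 members for uninvolved minus low-risk and 1 in place of 2 for vehicles of 10 minus 5 months. The Hsd3b2 to Hsd3b3 ratio, low-risk minus vehicle at 5 months, passed without technically deviating libraries (0.40) or those carrying adrenal genes (0.42), and for vehicles of 5 months minus 3 weeks missed without the former (0.36). In the last of these the whole summed sample of 3-week vehicle mouse 3 was left out.

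Signs changed only in differences that were not called. Tumor minus uninvolved gave 0.0566 for Hsd3b2 and 0.0700 for Hsd3b5 with mouse as a replicate block over 6 mice, and 0.0366 for Hsd3b5 with libraries 3 and 6 apart. The block fit also held libraries 3 and 6 apart. Leaving out uninvolved sample 1, 5, 7 or 12 gave -0.205 to 0.00907 for Hsd3b2 and -0.252 to 0.229 for Hsd3b5, and leaving out the summed libraries 3 and 6 gave -0.235 and -0.376. Leaving out single low-risk samples gave, for low-risk minus vehicle at 10 months, -0.312 to 0.122 for Hsd3b5, and for low-risk livers of 10 minus 5 months -0.106 to 0.0566 for Hsd3b2 and -0.41 to 0.0268 for Hsd3b5. With the vehicle tumor library counted as vehicle, low-risk minus vehicle at 10 months gave 0.142 for Hsd3b5. Vehicles of 5 months minus 3 weeks gave -0.108 for Hsd3b2 and -0.0709 for Hsd3b7 without technically deviating libraries, and -0.118 and -0.0109 without those carrying adrenal genes. The causes were not tested. The replicate block changed no call. At 2.83 M counts in the shallowest library, members under 1.02 CPM are below 3 counts.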
